A study of Mus musculus with 14 samples.

Results

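The transcripts examined here were those of 9 genes of salt and magnesium transport in the thick ascending limb and the distal convoluted tubule of the kidney: Slc12a1, Umod, Kcnj1, Bsnd, Slc12a3, Wnk4, Stk39, Klhl3 and Trpm6. They were chosen by symbol from the 24411 genes counted in each library, and 9 of 9 passed the filter on low counts. The measurements came from RNA sequencing of whole kidneys of male C57/B6 mice aged 8 weeks, with 4 libraries at day 0 and 5 libraries each at day 1 and day 3 after renal ischemia-reperfusion injury (IRI), in which the blood flow to the kidney is stopped for a time and then restored. No transgene or agent is named for any of these mice, and whether the day 0 mice had a sham operation was not found in the sources used here. The labels do not say that each library came from a separate animal, so the p-values measure the spread between these libraries, which may be in part technical. Levels are given as CPM, read counts brought to a fixed library total, scaled between libraries by the trimmed mean of M values (TMM), and fold changes were tested with edgeR's quasi-likelihood test over 14300 genes with Benjamini-Hochberg adjustment.

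In the thick ascending limb, the cotransporter encoded by Slc12a1 takes up sodium, potassium and chloride from the tubular fluid, the potassium channel encoded by Kcnj1 returns potassium to the lumen so that the cotransporter can go on working, and chloride leaves through ClC-K channels that need the subunit encoded by Bsnd. Umod encodes uromodulin, the main protein of normal urine, which is made by the same cells. In the distal convoluted tubule, the cotransporter encoded by Slc12a3 takes up sodium and chloride, and the channel encoded by Trpm6 takes up magnesium. The kinase encoded by Wnk4 acts on the kinase SPAK, encoded by Stk39, which phosphorylates both cotransporters, and KLHL3 marks the WNK kinases for degradation. In bulk tissue, fewer cells of a type and less RNA per cell cannot be told apart.

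The promoters of Slc12a1, Umod and Slc12a3 are shown because the courses of these 3 genes after injury are set against each other here. They are given as the 250 bases before the start of the RefSeq transcript on GRCm38.p6, read 5′ to 3′ on the strand of the gene, and 8 of the 9 genes matched an entry. The Slc12a1 window lies at chr2:125152350-125152599 on the plus strand, the Umod window at chr7:119479263-119479512 on the minus strand and the Slc12a3 window at chr8:94328958-94329207 on the plus strand. Capitals mark matches, on either strand, to 3 motifs: GTTAAT, the core of the site of HNF1 factors, which are active throughout the tubule, AAGGTCA, a site of estrogen-related receptors, and TATAAA, the TATA box.
Slc12a1 promoter: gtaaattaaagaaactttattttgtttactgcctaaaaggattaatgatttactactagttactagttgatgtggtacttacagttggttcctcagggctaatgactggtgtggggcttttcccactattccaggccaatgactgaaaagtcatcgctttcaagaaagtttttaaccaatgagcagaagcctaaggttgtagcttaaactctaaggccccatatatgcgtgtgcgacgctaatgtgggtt
Umod promoter: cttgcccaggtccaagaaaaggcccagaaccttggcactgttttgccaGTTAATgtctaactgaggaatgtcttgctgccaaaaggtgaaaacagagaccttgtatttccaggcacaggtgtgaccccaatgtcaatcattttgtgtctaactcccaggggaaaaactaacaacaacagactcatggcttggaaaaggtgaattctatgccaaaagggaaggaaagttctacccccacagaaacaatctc
Slc12a3 promoter: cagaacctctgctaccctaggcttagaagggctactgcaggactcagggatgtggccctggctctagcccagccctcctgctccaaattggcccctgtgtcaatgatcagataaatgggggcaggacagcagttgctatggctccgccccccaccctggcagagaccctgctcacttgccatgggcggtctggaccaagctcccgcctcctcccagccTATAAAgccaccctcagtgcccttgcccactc
GTTAAT stood 202 to 197 bases before the start of Umod and TATAAA 32 to 27 bases before the start of Slc12a3. These were the 2 matches among the 8 windows. Among 32851 promoter windows of this length, 6.43% held GTTAAT, 4.08% held AAGGTCA and 12.4% held TATAAA.

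At day 0, Umod was the most abundant of the 9 transcripts. Divided by the length of the principal transcript, its level was 2198 ± 380 CPM per kb (SD, n = 4), followed by Slc12a1 at 383 ± 83.3 CPM per kb. Kcnj1 at 123 ± 18.7 and Slc12a3 at 120 ± 28.6 CPM per kb came next and did not differ beyond their spread. Wnk4 at 43.1 ± 2.12, Bsnd at 23.2 ± 1.52 and Stk39 at 12.1 ± 0.642 CPM per kb were each below the gene before them by more than their SDs. Trpm6 at 1.87 ± 0.541 and Klhl3 at 1.55 ± 0.350 CPM per kb were lowest and within their spread of each other. Umod alone took 0.427% to 0.631% of all reads on genes at day 0 and ranked between 5 and 10 among all genes in those libraries. At day 1 the order began with Umod, Slc12a3 and Slc12a1, at 1478 ± 365, 105 ± 30.1 and 31.7 ± 8.94 CPM per kb (n = 5). The place after Slc12a3 differed by file number, with Kcnj1 at 31.6 and Slc12a1 at 24.4 CPM per kb in the mean of day 1 replicates 1 and 2, and Slc12a1 at 36.6 and Kcnj1 at 5.13 in that of replicates 3 to 5. At day 3 Slc12a1 at 60.7 ± 52.8, Slc12a3 at 36.2 ± 13.1 and Kcnj1 at 33.8 ± 17.5 CPM per kb lay within their spread of each other, below Umod at 883 ± 148 CPM per kb. There Slc12a1 led these 3 genes in replicates 1 to 3, with a mean of 93.8 CPM per kb, and was the lowest of them in replicates 4 and 5, with 11.1 CPM per kb.

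**Figure D1:**
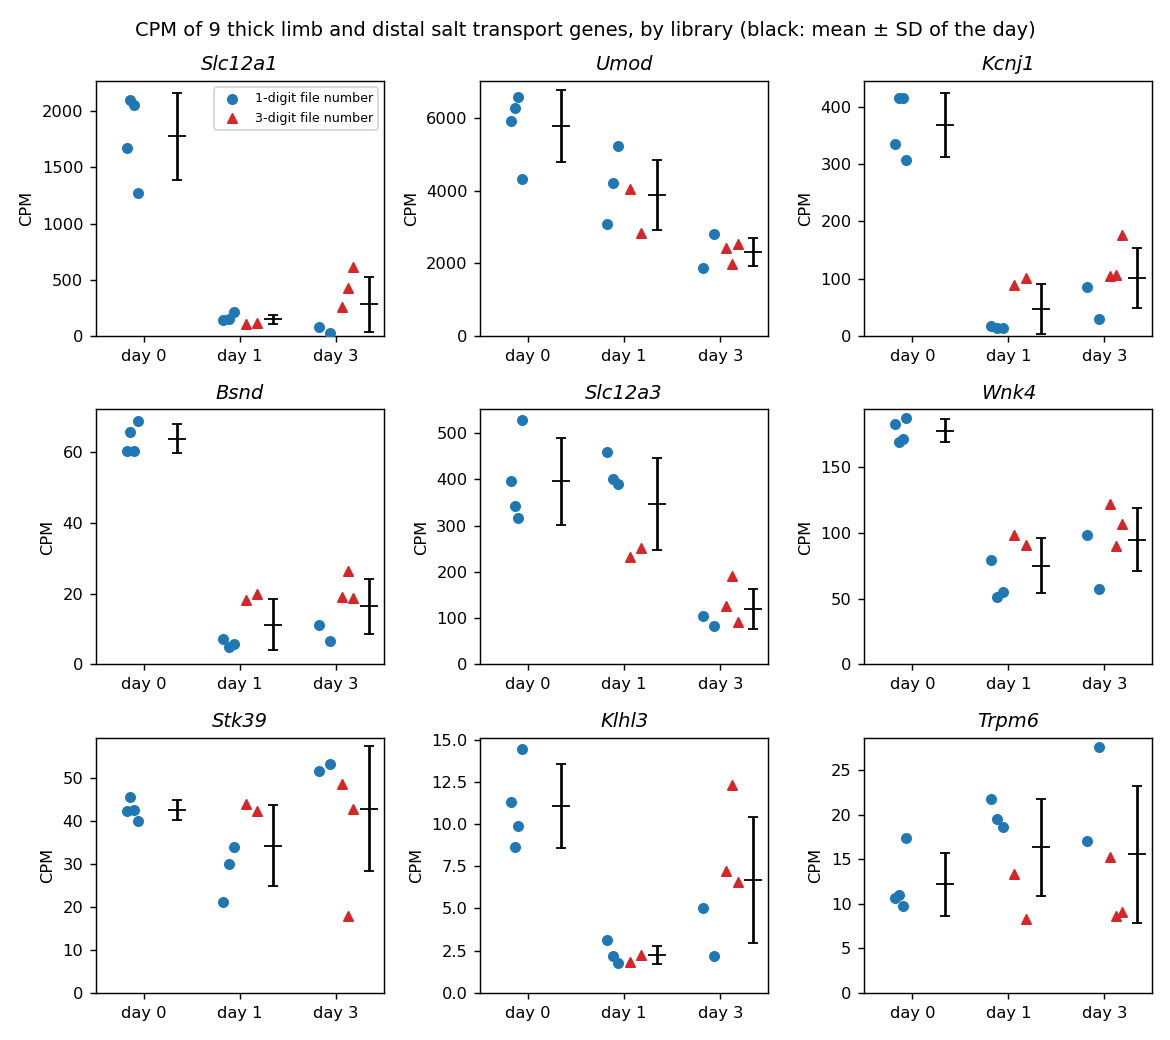
CPM of each of the 9 genes in the 14 libraries by day after IRI, each panel with its own vertical axis from 0. Symbols mark whether the number of the deposited library file has 1 or 3 digits and bars are group means. Slc12a1 fell from at least 1275 CPM in every day 0 library to at most 215 CPM in every day 1 library, and at day 3 its libraries spread from 26.1 to 614 CPM.

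The comparison of the injured with the day 0 kidneys asks how these transcripts change after IRI. At day 1, 6 of the 9 genes fell and none rose, and at day 3 again 6 fell and none rose, but not the same 6. Across all genes tested 18.7% were called lower and 23.3% higher at day 1, and 13.8% lower and 19.5% higher at day 3. The median log2 fold change of the 9 genes was -1.24 at day 1 and -1.32 at day 3, where that of all genes was 0.01 and 0.05. All libraries of the injured group lay below all day 0 libraries for 5 genes at day 1 and 6 genes at day 3, in a background of 20.5% and 16.5% of genes. Both comparisons share the 4 day 0 libraries.

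Slc12a1 (chr2:125152505-125230002, plus strand) had the deepest fall of the 9 genes at day 1 over all libraries, although Kcnj1 fell further in day 1 replicates 3 to 5. Its level was 1671, 2100, 2060 and 1275 CPM in day 0 replicates 1 to 4. It was 110, 117, 145, 151 and 215 CPM in day 1 replicates 1 to 5, and 262, 430, 614, 76.7 and 26.1 CPM in day 3 replicates 1 to 5. Every day 0 library lay above every injured library, and the 3 highest and the 2 lowest of the injured libraries were all of day 3. The log2 fold change was -3.59 (SE 0.65, adjusted p = 0.000845 by edgeR) at day 1, or 12.1-fold lower, and -2.66 (SE 0.62, adjusted p = 0.00582) at day 3, or 6.30-fold lower. From day 1 to day 3 the change was 0.94 (SE 0.58, adjusted p = 0.279 by edgeR) over all libraries.

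Kcnj1 (chr9:32372493-32399197, plus strand) had 336, 415, 416 and 307 CPM at day 0. Its day 1 libraries had 88.2, 101, 18.3, 14.5 and 13.2 CPM, and its day 3 libraries 106, 107, 176, 85.4 and 30.3 CPM. The injured libraries were all below the day 0 libraries, and day 1 replicates 1 and 2 stood well above day 1 replicates 3 to 5. Kcnj1 had a log2 fold change of -2.97 (SE 0.62, adjusted p = 0.00217 by edgeR) at day 1 and -1.87 (SE 0.60, adjusted p = 0.0279) at day 3. The day 3 call was lost, with adjusted p from 0.0505 to 0.0616, without day 0 replicate 1, 2 or 3 or day 3 replicate 1, 4 or 5.

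Bsnd (chr4:106483456-106492283, minus strand) had 60.3, 65.8, 60.5 and 68.9 CPM at day 0, the tightest day 0 levels relative to the mean among Slc12a1, Umod, Kcnj1 and Bsnd. It had 18.2, 19.8, 7.09, 4.97 and 5.79 CPM at day 1 and 19.0, 26.4, 18.9, 11.2 and 6.61 CPM at day 3. No injured library reached a day 0 level, and the order within day 1 was like that of Kcnj1, with replicates 1 and 2 highest. Bsnd fell by 2.51 on the log2 scale at day 1 (SE 0.44, adjusted p = 0.000676 by edgeR) and by 1.96 at day 3 (SE 0.43, adjusted p = 0.0038).

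Umod (chr7:119462711-119479282, minus strand) had a log2 fold change nearer to 0 at day 1 than Slc12a1, Kcnj1 or Bsnd. It had 5900, 6280, 6567 and 4331 CPM at day 0 and 4039, 2844, 3076, 4215 and 5226 CPM at day 1. Day 1 replicate 5 lay above day 0 replicate 4, so the groups overlapped. At day 3 it had 2408, 1986, 2523, 1865 and 2809 CPM, all below every library of day 0 and of day 1. Umod changed on the log2 scale by -0.57 (SE 0.21, adjusted p = 0.0407 by edgeR) at day 1, -1.32 (SE 0.21, adjusted p = 0.000559) at day 3 and -0.74 (SE 0.20, adjusted p = 0.0242) from day 1 to day 3. The day 1 call was lost without day 0 replicate 1, 2 or 3, day 1 replicate 2, 3 or 4, or day 3 replicate 1, with adjusted p up to 0.109. The fall from day 1 to day 3 was lost without day 1 replicate 4 or 5 or day 3 replicate 4, with adjusted p up to 0.0649.

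Within a library, the ratio of Umod to Slc12a1 reads needs no scaling between libraries. At day 0 there were 3.53, 2.99, 3.19 and 3.40 Umod reads for each Slc12a1 read. At day 1 there were 36.8, 24.4, 21.3, 27.9 and 24.4, and at day 3 9.18, 4.61, 4.11, 24.3 and 107.7. The ratio was thus above its day 0 range in every injured library, and at day 3 it was again near that range in replicates 2 and 3 and highest in replicate 5. The ratio of Slc12a1 to Kcnj1 reads was 4.98, 5.06, 4.95 and 4.16 at day 0. At day 1 it was 1.24 and 1.16 in replicates 1 and 2 and 7.91, 10.4 and 16.3 in replicates 3 to 5, so these libraries lay on both sides of day 0. At day 3 it was 2.48, 4.02 and 3.49 in replicates 1 to 3 and 0.898 and 0.860 in replicates 4 and 5, all below day 0.

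**Figure D2:**
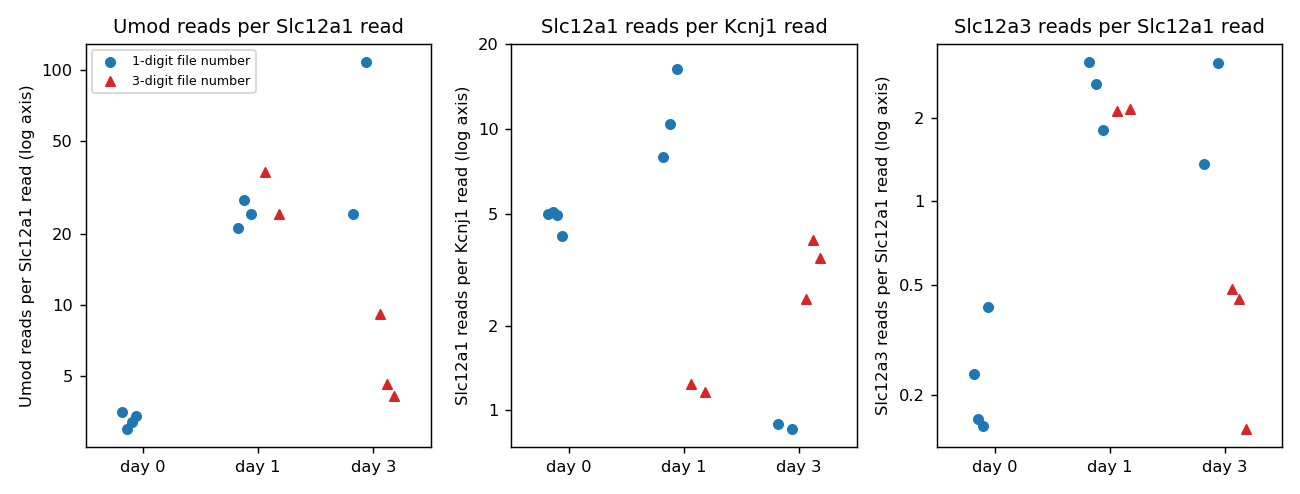
Ratios of read counts of 2 genes within each of the 14 libraries, on log axes, by day after IRI and by the number of digits in the file number. Umod reads per Slc12a1 read were 2.99 to 3.53 at day 0 but 21.3 to 36.8 at day 1, and Slc12a1 reads per Kcnj1 read lay on both sides of the day 0 values at day 1.

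Slc12a3 (chr8:94329201-94366214, plus strand), the cotransporter of the distal convoluted tubule, was called lower at day 3 but not at day 1 over all libraries. It had 396, 342, 317 and 528 CPM at day 0, 233, 251, 460, 400 and 389 CPM at day 1, and 127, 191, 92.6, 104 and 82.3 CPM at day 3. Days 0 and 1 overlapped, although day 1 replicates 1 and 2, those with 3-digit file numbers, lay below every day 0 library, and every day 3 library was below every other library. Its log2 fold change was -0.19 (SE 0.27, adjusted p = 0.581 by edgeR) at day 1, -1.73 (SE 0.27, adjusted p = 0.000446) at day 3 and -1.54 (SE 0.26, adjusted p = 0.00323) from day 1 to day 3. There were 0.154 to 0.414 Slc12a3 reads for each Slc12a1 read at day 0 and 1.81 to 3.18 at day 1. At day 3 this ratio was 0.483, 0.444 and 0.151 in replicates 1 to 3 and 1.36 and 3.15 in replicates 4 and 5.

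Trpm6 (chr19:18749983-18892511, plus strand) was not called at either day. Its level was 10.6, 11.0, 9.73 and 17.4 CPM at day 0, 13.4, 8.27, 21.8, 19.5 and 18.7 CPM at day 1 and 15.3, 8.67, 9.06, 17.1 and 27.6 CPM at day 3. The 3 groups overlapped, and day 0 replicate 4 was higher than its group. The log2 fold change was 0.42 (SE 0.35, adjusted p = 0.349 by edgeR) at day 1 and 0.35 (SE 0.35, adjusted p = 0.463) at day 3.

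Among the regulators, Wnk4 (chr11:101260567-101277409, plus strand) fell at both days. It had 183, 169, 171 and 187 CPM at day 0, 98.2, 90.5, 79.6, 51.5 and 55.0 CPM at day 1 and 122, 89.7, 106, 98.2 and 57.1 CPM at day 3. No injured library reached the lowest day 0 library. Wnk4 fell by 1.24 on the log2 scale at day 1 (SE 0.22, adjusted p = 0.000759 by edgeR) and by 0.90 at day 3 (SE 0.22, adjusted p = 0.00672).

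Klhl3 (chr13:58000228-58113592, minus strand) fell at day 1 and was higher again at day 3. It had 11.3, 8.65, 9.85 and 14.5 CPM at day 0 and 1.83, 2.27, 3.13, 2.17 and 1.77 CPM at day 1. At day 3 it had 7.23, 12.3, 6.58, 5.04 and 2.20 CPM, with replicate 5 among the day 1 values and replicate 2 among those of day 0. Its raw counts over the 14 libraries ran from 22 to 239, the lowest of the 9 genes. The log2 fold change was -2.30 (SE 0.37, adjusted p = 0.000426 by edgeR) at day 1, -0.72 (SE 0.36, adjusted p = 0.133) at day 3 and 1.58 (SE 0.36, adjusted p = 0.0115) from day 1 to day 3. Without day 3 replicate 2 it was called lower at day 3 also, with adjusted p = 0.0195. Klhl3 overlaps the microRNA gene Mir874 on the same strand.

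Stk39 (chr2:68210445-68472268, minus strand) had 40.2 to 45.7 CPM at day 0, 21.1 to 44.1 CPM at day 1 and 17.9 to 53.3 CPM at day 3. The groups overlapped at each step, with day 1 replicate 3 and day 3 replicate 2 lowest. The log2 fold change was -0.31 (SE 0.27, adjusted p = 0.362 by edgeR) at day 1 and 0.01 (SE 0.27, adjusted p = 0.986) at day 3. From day 1 to day 3, 3 of the 9 genes were called, Klhl3 higher and Umod and Slc12a3 lower, where 8.52% of all genes were called higher and 7.39% lower. For Umod and Slc12a3 the day 3 libraries lay wholly below the day 1 libraries, in a background of 3.47% of genes.

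The other genes of these segments were described from 3 lists of 12 genes each. Of the 36, 20 fell and 2 rose at day 1, with a median log2 fold change of -1.02, and 19 fell and none rose at day 3, with a median of -0.81. Across all genes, 18.7% fell and 23.3% rose at day 1, and 13.8% fell and 19.5% rose at day 3. Of the thick limb list, 9 fell at day 1 and 7 at day 3. Of the distal convoluted tubule list, 8 fell and 1 rose at day 1 and 9 fell at day 3. Of the list of WNK and SPAK regulators, 3 fell and 1 rose at day 1 and 3 fell at day 3, falls nearer to the shares of all genes than those of the thick limb and distal convoluted tubule lists. The 2 that rose at day 1 were Trpv5, a calcium channel, from a mean of 16.0 to 26.6 CPM, and Ppp3ca, a subunit of the phosphatase calcineurin, from 59.0 to 85.3 CPM. Neither was called in the libraries of day 1 with 3-digit file numbers, at 0.45 (adjusted p = 0.0549 by edgeR) for Trpv5 and 0.24 (adjusted p = 0.205) for Ppp3ca, and both were called in those with 1-digit numbers, at 0.90 and 0.70. At day 3 neither was called over all libraries, and Trpv5 was called higher in those with 3-digit numbers, at 0.78 (adjusted p = 0.0024).

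In the thick limb list, Egf, Ptger3 and Casr fell most at day 1 and Egf, Ptger3 and Ppp1r1a at day 3. Egf, the precursor of epidermal growth factor, had 1995 ± 49.9 CPM at day 0 (n = 4), 306 ± 218 at day 1 and 85.5 ± 110.2 at day 3 (n = 5 each), with log2 fold changes of -2.70 (SE 0.76, adjusted p = 0.0117 by edgeR) and -4.54 (SE 0.82, adjusted p = 0.00121). The Egf values were -4.74 and -4.01 at days 1 and 3 in libraries with 3-digit file numbers, and -2.12 and -6.18 in libraries with 1-digit numbers. Its change from day 1 to day 3 was 0.73 (adjusted p = 0.475) in the former and -4.06 (adjusted p = 0.0018) in the latter. Ptger3, a prostaglandin E2 receptor, had 94.1 ± 16.4, 11.4 ± 5.52 and 12.4 ± 5.49 CPM at days 0, 1 and 3, and fell by 3.04 and 2.92 on the log2 scale. Casr, the calcium-sensing receptor, had 45.2 ± 2.48, 7.90 ± 0.551 and 22.3 ± 8.54 CPM. It fell by 2.52 at day 1 (SE 0.23, adjusted p = 8.23e-06 by edgeR) and rose by 1.50 from day 1 to day 3 (adjusted p = 0.00153), the single called rise among the 36 genes over all libraries, where 8.52% of all genes rose. Casr rose by 0.78 (adjusted p = 0.00506 by edgeR) within the 1-digit and by 1.90 (adjusted p = 0.000327) within the 3-digit libraries. In the 1-digit libraries Kcnj10 and Cab39l also rose and 8 of the 36 fell, where 32.0% of all genes were called. Ppp1r1a, a phosphatase inhibitor, fell by 2.43 at day 3.

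In the distal convoluted tubule list, Slc8a1, Calb1 and Emx1 fell most at day 1 and Pvalb, Calb1 and Slc8a1 at day 3 over all libraries. Slc8a1, the sodium-calcium exchanger, fell by 2.53 on the log2 scale at day 1 (SE 0.35, adjusted p = 0.000151 by edgeR) and by 2.14 at day 3 (SE 0.35, adjusted p = 0.000633). Calb1, which encodes the calcium buffer calbindin, had 476 ± 94.7, 129 ± 22.4 and 66.3 ± 24.2 CPM at days 0, 1 and 3 and fell further from day 1 to day 3 (log2 fold change -0.96, adjusted p = 0.0129), a fall that was not called within 1-digit file numbers alone (-0.72, adjusted p = 0.0984). Pvalb, which encodes parvalbumin, a marker of the early part of the segment, had 48.1 ± 4.75, 36.8 ± 31.1 and 1.28 ± 1.62 CPM and fell by 5.24 at day 3 (SE 0.99, adjusted p = 0.00162 by edgeR). At day 1 Pvalb was at -0.39 (adjusted p = 0.726) over all libraries, and it fell by 3.51 (adjusted p = 0.00323) in those with 3-digit file numbers, further there than Slc8a1, Calb1 or Emx1, while the value for 1-digit numbers was 0.28 (adjusted p = 0.675). Its change from day 1 to day 3 was -4.85 (adjusted p = 0.00683) over all libraries, -5.77 (adjusted p = 0.000975) within those of 1-digit and -1.62 (adjusted p = 0.203) within those of 3-digit file numbers. S100g, another calcium binding protein gene, had 303 ± 53.7, 384 ± 136 and 99.1 ± 72.2 CPM and fell by 1.95 from day 1 to day 3 (adjusted p = 0.00627). Emx1, a homeobox gene, fell by 1.48 at day 1. Over all libraries, Casr rose and Pvalb, S100g and Calb1 fell from day 1 to day 3, the 4 called genes of the 36. Across all genes, 8.52% were called higher and 7.39% lower in that step.

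In the list of regulators, the falls were smaller. Nr3c2, the mineralocorticoid receptor, fell by 1.38 on the log2 scale at day 1 and by 0.83 at day 3. Wnk1, which encodes another WNK kinase, had 412 ± 16.8 CPM at day 0, 200.5 ± 21.0 at day 1 and 209 ± 58.1 at day 3, and fell by 1.04 and 0.98. Cab39l, which encodes a binding partner of SPAK, fell by 1.09 and 0.68. The largest adjusted p of these 6 values was 0.0296, that of Cab39l at day 3 (edgeR).

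**Figure D3:**
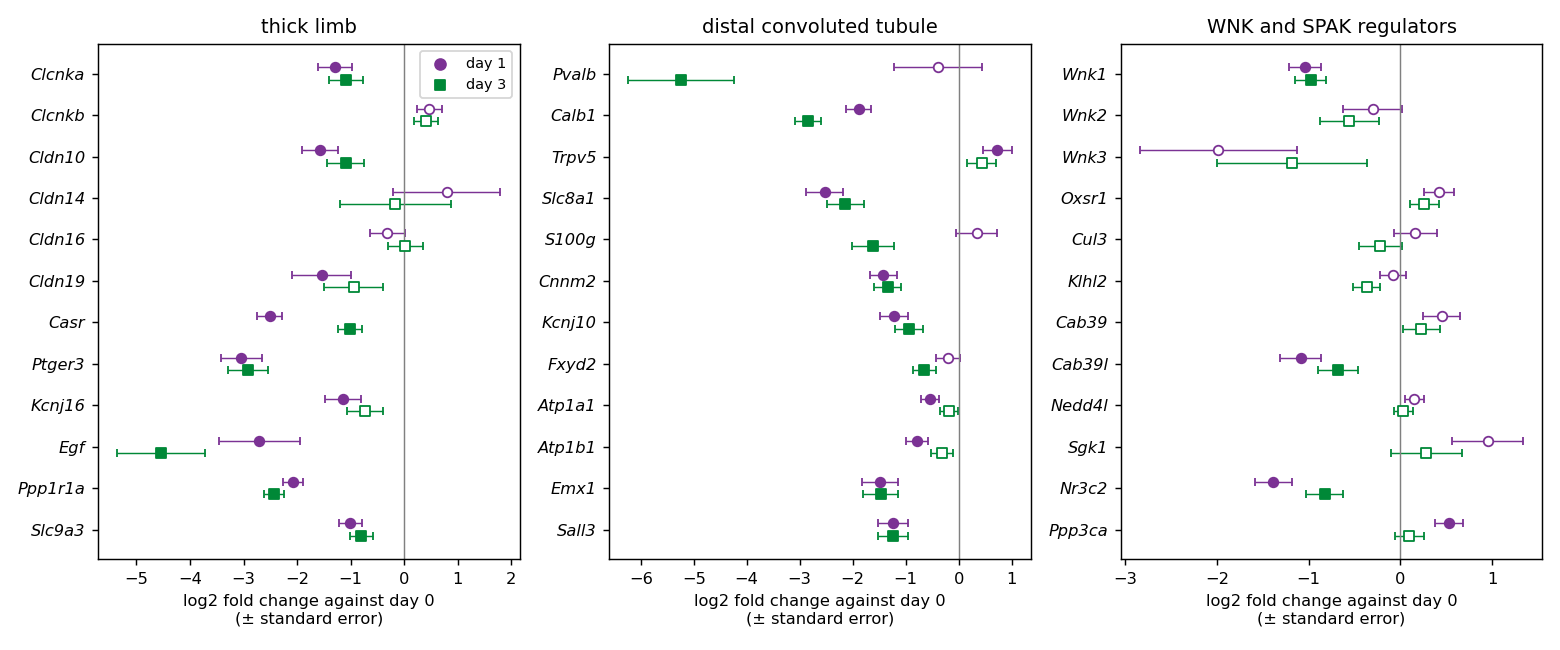
Log2 fold changes of the 36 other thick limb, distal convoluted tubule and regulator genes against day 0, at day 1 and day 3, in 3 panels by list, with bars of 1 SE and filled symbols for called values. Most called genes lie below 0, and Egf and Pvalb reach -4.54 and -5.24 at day 3.

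The injured libraries carried file numbers of 2 formats. Day 1 replicates 1 and 2 and day 3 replicates 1 to 3 had numbers of 3 digits, and all other libraries, including all of day 0, had numbers of 1 digit. Against day 0, 6 of the 9 genes were called in the 1-digit and 7 in the 3-digit libraries of day 1, and 8 and 6 in those of day 3, where 58.5%, 41.6%, 53.7% and 32.4% of all genes were. Between days 1 and 3, 5 were called among 1-digit and 2 among 3-digit libraries, with 32.0% and 13.9% of all genes. What the format stands for is not given, and it is taken here as a grouping that may be technical. It could be compared within days 1 and 3, and for the 3-digit libraries it cannot be told apart from the injury in a comparison with day 0. At day 1, 3 of the 9 genes were higher and 2 lower in the 3-digit libraries, where 18.6% and 16.4% of all genes were. At day 3, 4 were higher and 1 lower, where 10.3% and 8.22% of all genes were. The 2 formats did not overlap for 7 genes at day 1 and 6 at day 3, with 60.7% and 41.4% of all genes doing so.

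Slc12a1 differed by format at day 3 and in opposite directions over time. The 3-digit libraries of day 3 had 262 to 614 CPM and the 1-digit libraries 76.7 and 26.1 CPM, a log2 difference of 3.08 (SE 0.46, adjusted p = 0.00299 by edgeR). At day 1 the difference was -0.59 (SE 0.41, adjusted p = 0.283), with 110 and 117 against 145 to 215 CPM. The 2 differences themselves differed by 3.67 (SE 0.61, adjusted p = 0.00223 by edgeR), in a background of 17.6% of genes called for such a difference. From day 1 to day 3, Slc12a1 rose by 1.94 (SE 0.43, adjusted p = 0.013) among the 3-digit libraries and fell by 1.72 (SE 0.43, adjusted p = 0.00949) among the 1-digit libraries, so the pooled value of 0.94 stood for neither. Against day 0 it was lower in each format at each day, with log2 fold changes of -3.97 and -3.38 in the 3-digit and 1-digit libraries of day 1 and -2.03 and -5.11 in those of day 3.

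Kcnj1 and Bsnd were higher in the 3-digit libraries at both days. The Kcnj1 difference was 2.62 (SE 0.35, adjusted p = 0.000306 by edgeR) at day 1 and 1.16 (SE 0.35, adjusted p = 0.0387) at day 3. The Bsnd difference was 1.68 (SE 0.22, adjusted p = 0.000299 by edgeR) at day 1 and 1.26 (SE 0.23, adjusted p = 0.00568) at day 3. The 1-digit format of day 3 held replicates 4 and 5. Without replicate 5 neither gene was called at day 3, but replicate 4 was then the only library of that format, with a spread taken from other groups. Replicate 4 had 85.4 CPM of Kcnj1 and 11.2 CPM of Bsnd, against means of 130 and 21.4 CPM in the 3-digit libraries. The Kcnj1 call at day 3 was also lost without day 0 replicate 1, 2 or 3 or day 3 replicate 2 or 3. Against day 0, Kcnj1 was lower by 4.59 in the 1-digit and by 1.96 in the 3-digit libraries of day 1. Kcnj1 rose from day 1 to day 3 by 1.92 (SE 0.35, adjusted p = 0.00155 by edgeR) among 1-digit libraries, where 3-digit libraries gave a change of 0.46 (adjusted p = 0.398).

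Umod showed no called difference by format, with -0.28 (SE 0.28, adjusted p = 0.455 by edgeR) at day 1 and -0.02 (SE 0.27, adjusted p = 0.966) at day 3. Against day 0 it was lower by 1.30 in the 1-digit and by 1.32 in the 3-digit libraries of day 3. At day 1 the values were -0.47 (adjusted p = 0.0977) and -0.75 (adjusted p = 0.0394). From day 1 to day 3 they were -0.84 (adjusted p = 0.0367) within the 1-digit and -0.58 (adjusted p = 0.173) within the 3-digit libraries.

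**Figure D4:**
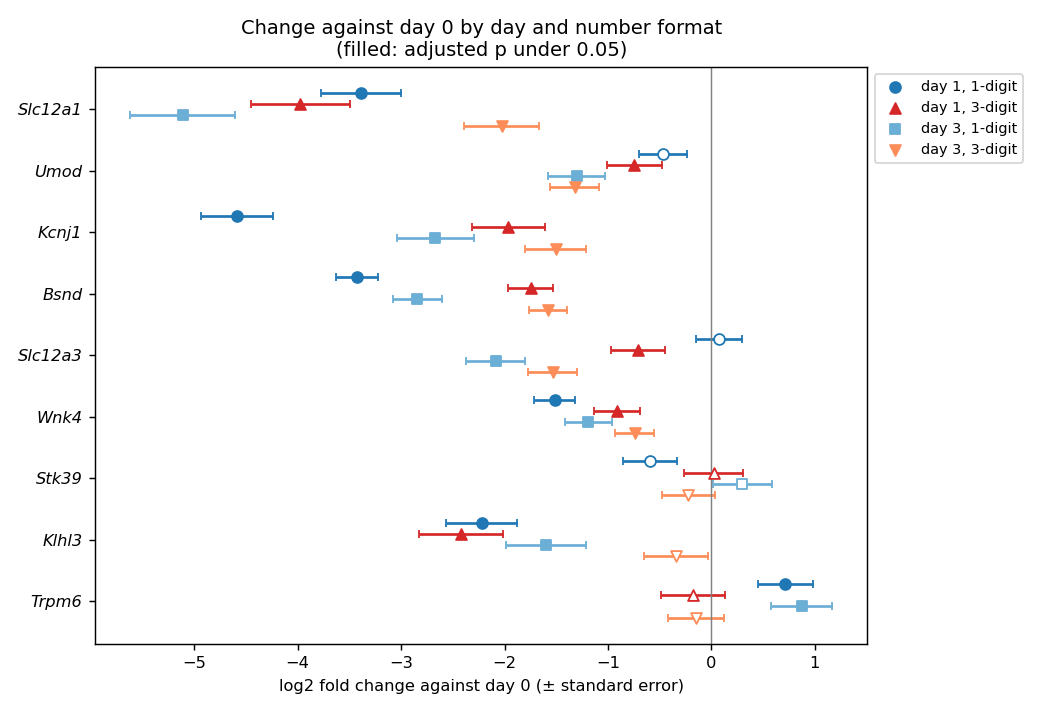
Log2 fold changes against day 0 with SE for the 9 genes, at day 1 and day 3, for the 1-digit and the 3-digit libraries fitted as separate groups, with filled symbols for called values. Slc12a1 stands at -3.38 and -3.97 at day 1 and at -5.11 and -2.03 at day 3 in the 1-digit and 3-digit libraries, and Umod at -1.30 and -1.32 at day 3.

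Slc12a3 at day 1 was lower in the 3-digit format, at 233 and 251 against 389 to 460 CPM, a log2 difference of -0.78 (SE 0.28, adjusted p = 0.0415 by edgeR), and at day 3 the difference was 0.55 (SE 0.27, adjusted p = 0.166). The differences of the 2 days differed by 1.33 (SE 0.39, adjusted p = 0.0319 by edgeR), a call that was lost without day 1 replicate 3 or day 3 replicate 2. It was also lost without day 1 replicate 1 or 2 or day 3 replicate 5, which each left 1 library in a format. At day 1 the change from day 0 was -0.71 (adjusted p = 0.0445) in the 3-digit and 0.07 (adjusted p = 0.796) in the 1-digit libraries, so a fall at day 1 was called in the 3-digit libraries. At day 3 Slc12a3 was lower in both, by 2.08 in the 1-digit and by 1.53 in the 3-digit libraries. It fell from day 1 to day 3 by 2.16 among 1-digit libraries (adjusted p = 0.000312), where 3-digit libraries gave a change of -0.82 (adjusted p = 0.0552).

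Trpm6 levels were lower in the 3-digit format on each injured day, by 0.89 on the log2 scale at day 1 (SE 0.33, adjusted p = 0.0494 by edgeR) and by 1.02 at day 3 (SE 0.31, adjusted p = 0.0402). Against day 0 it was called higher in the 1-digit libraries, by 0.71 at day 1 (adjusted p = 0.0336) and 0.87 at day 3 (adjusted p = 0.0236), and the 3-digit values were -0.18 and -0.15. Without day 0 replicate 4, the highest library of its group, the pooled values were 0.64 (adjusted p = 0.202) and 0.57 (adjusted p = 0.28). For Wnk4 the 3-digit format exceeded the 1-digit format by 0.60 at day 1 (SE 0.22, adjusted p = 0.0493 by edgeR), with 0.45 (adjusted p = 0.173) at day 3. Without day 3 replicate 4 the 1-digit format of day 3 held replicate 5 alone, at 57.1 CPM, against 89.7 to 122 CPM in the 3-digit libraries. Klhl3 differed by -0.20 (adjusted p = 0.733) at day 1 and by 1.26 (SE 0.40, adjusted p = 0.0427) at day 3. Against day 0, Klhl3 was lower by 1.60 in the 1-digit libraries of day 3 (adjusted p = 0.00373), and the 3-digit value was -0.34 (adjusted p = 0.419). Its rise from day 1 to day 3 was 2.08 within the 3-digit libraries (adjusted p = 0.00747), with 0.62 (adjusted p = 0.254) within the 1-digit libraries. For Stk39 the difference was 0.61 (adjusted p = 0.134) at day 1, called without day 3 replicate 2 (adjusted p = 0.0121), and -0.52 (adjusted p = 0.228) at day 3. Within the 1-digit format Stk39 rose by 0.89 from day 1 to day 3 (SE 0.30, adjusted p = 0.0395), and the 3-digit value was -0.24 (adjusted p = 0.628). Several differences between the formats depended on single libraries. Without day 1 replicate 1 or 2, or day 3 replicate 4 or 5, 1 format held 1 library on that day, its spread taken from other groups. The day 1 call was lost for Slc12a3 without day 0 replicate 1 or 2 or any day 1 replicate, for Wnk4 without any day 0 replicate, day 1 replicate 1, 2, 4 or 5 or day 3 replicate 3, and for Trpm6 without day 0 replicate 1, 2 or 3 or day 1 replicate 2, 3, 4 or 5. The day 3 call was lost for Trpm6 without day 0 replicate 1, 2 or 3, day 1 replicate 5 or day 3 replicate 2, 3 or 5, and for Klhl3 without day 0 replicate 1, 2 or 3, day 1 replicate 1, 2 or 4 or day 3 replicate 2, 3 or 5.

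Of the 36 other genes of these segments, 6 were higher and 7 lower in the 3-digit libraries of day 1, and 9 were higher and 3 lower in those of day 3, where 18.6% and 16.4% of all genes were at day 1 and 10.3% and 8.22% at day 3. In the thick limb list, 3 of 12 were higher and 1 lower at day 1, and 6 were higher and none lower at day 3. Pvalb at day 1 stood at 4.58 and 3.86 CPM in the 3-digit format against 59.4, 45.4 and 70.9 CPM in the 1-digit format, and at day 3 it had at most 3.94 CPM in either format.

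Across the 14 libraries, the levels of the 9 genes were also set beside each other on the log2 CPM scale, as a description of libraries that share day, format and depth. Kcnj1 and Bsnd varied most alike, with r = 0.96 over all libraries and 0.92 after each day's mean was taken away. Slc12a1 and Umod had r = 0.59 over all libraries and 0.05 within days. The genes whose pattern was most like that of Slc12a1, among 13326 genes with a mean of at least 1 CPM, were Magt1, Ak3, Tmx2, Slc6a13 and Gcgr, with r from 0.962 to 0.965 and from 0.887 to 0.919 within days. Those most like Slc12a3 were Cyp4a12a, Proc, Treh, Ggct and H2-Ea-ps, with r from 0.949 to 0.971 and from 0.726 to 0.868 within days.

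Reads on genes ran from 12485579 to 20476979 per library, and the genes at the lowest levels had at least 22 (Klhl3), 72 (Bsnd) and 154 (Trpm6) reads. Some markers of other cells were called between days or formats, and the part of other cells in the results on the 9 genes was not tested. Summed over 10 proximal tubule genes, the level was 19300 to 20873 CPM at day 0. At day 1 it was 13363 to 20286 CPM in the 1-digit and 4994 to 6189 CPM in the 3-digit libraries, and at day 3 it was 3857 to 9798 and 13012 to 18184 CPM. This was the order of Slc12a1 between the formats at each day, although its difference at day 1 was not called. At day 1 Slc12a3 and Trpm6 were also called lower in the 3-digit libraries, while Kcnj1, Bsnd and Wnk4 were called higher there. Of the 10 proximal tubule genes, 3 fell at day 1 and 4 at day 3. Across all genes 18.7% were called lower and 23.3% higher at day 1, and 13.8% lower and 19.5% higher at day 3. Over 12 collecting duct genes the sum was 1172 to 1434 CPM at day 0, 661 to 1048 at day 1 and 416 to 959 at day 3, with 4 and 7 genes lower. Over 8 urothelium genes it was 4.12 to 83.8 CPM at day 0, highest in replicate 4, 5.38 to 124.8 at day 1 and 3.94 to 53.7 at day 3, with 0 called at day 1 and 1 lower at day 3. Over 10 macrophage genes it was 139 to 230 CPM at day 0, 141 to 348 at day 1 and 194 to 514 at day 3, with 2 higher and 1 lower at day 1 and 4 higher and 1 lower at day 3. Over 10 tubular injury genes it was 1210 to 1611 CPM at day 0, 9144 to 37433 at day 1 and 6818 to 44801 at day 3, with 9 higher at each day. By format this sum at day 1 was 31692 to 37433 CPM for 3 digits and 9144 to 17242 CPM for 1 digit, while at day 3 it was 6818 to 33834 and 37257 to 44801 CPM, in the reverse order to Slc12a1 at each day. At day 1 Kcnj1, Bsnd and Wnk4 were in the same order as this sum, and Slc12a3 and Trpm6 in the reverse order. Between the formats, 6 proximal tubule genes were lower in the 3-digit libraries of day 1 and 4 were higher in those of day 3, 3 collecting duct genes were higher at each day and 1 lower at day 1, 4 urothelium genes were higher at day 1, and 1 macrophage gene was higher at day 1 and 6 were higher and 1 lower at day 3. Of the tubular injury genes, 2 were higher and 1 lower in the 3-digit format at day 1, with 1 lower at day 3. Across all genes, 18.6% were higher and 16.4% lower in the 3-digit libraries of day 1, and 10.3% and 8.22% in those of day 3. Up to 4 urothelium genes and 1 gene each of the thick limb, distal convoluted tubule and tubular injury lists had 0 reads in some library, and every gene of the proximal tubule, collecting duct, macrophage and regulator lists had reads in every library.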

How the data were processed

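RNA of 14 mouse kidney libraries was extracted with TRIzol and prepared with an Illumina TruSeq kit. Per the submitters' processing notes, the authors trimmed reads with Trimmomatic and used STAR and mm10. Their versions, and which annotation was used, are not given in the sources used here. The deposited files give raw counts of reads per gene, unstranded and by strand. The reverse strand held 98.5% to 98.7% of the strand-assigned reads and was used. From 29.0% to 38.3% of the reads of a library stood in entries without a gene and were left out.

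Tests used edgeR 4.0.16 in R 4.3.3 (filterByExpr by day, TMM, quasi-likelihood test, 1 term per day over all 14 libraries), which kept 14300 genes. An adjusted p under 0.05 was called. Formats were compared, and tested against day 0, in a fit with 1 term per day and format. SEs were derived from the F value. Tested on simulated day 1 against day 0 counts of 14140 genes, 200 of them changed by 2 on the log2 scale, the fit recovered 171 with 10 false calls. The simulated counts held no difference between formats, so they do not show how the fit acts where formats differ. Lengths came from GENCODE M21 on GRCm38. Alternatives were DESeq2 1.42.0, scaling by RLE or by total counts alone, omitting the filter, a minimum count of 10, the unstranded counts, the compared days alone, a replicate block, a format term, a single format, and leaving out each library.

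The 9 genes and the lists (thick limb, distal convoluted tubule, WNK and SPAK regulators, proximal tubule, collecting duct, urothelium, macrophage, tubular injury) were chosen with earlier results of these data known. The other genes named were, per comparison of days, the 3 called genes of each of the first 3 lists with the largest change, and the 5 genes most like Slc12a1 and Slc12a3 by Pearson's r of log2 CPM with a prior count of 2. Trpv5, Ppp3ca and Pvalb by format were named after their values were seen.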

Additional observations from a re-analysis of the deposited data

Results flagged for a closer look

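Trpm6 in day 0 replicate 4 stood apart, at 17.4 CPM, with the other 3 libraries of day 0 at 9.73 to 11.0 CPM. Of the 27 groups of values checked in this way (9 genes at 3 days), 1 stood apart, where chance gives about 1.35.

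The difference of Slc12a1 between the 3-digit and 1-digit libraries was not the same at the 2 injured days, with 3.67 between the log2 differences of day 3 and day 1 by the interaction test. For Slc12a3 the same test gave 1.33.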

How the results depend on the processing

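Of 615 checks of the called results of the 9 genes, 535 kept direction and call, 80 kept the direction and lost the call, and none turned. The falls of Slc12a1, Bsnd and Wnk4 at both days, of Kcnj1 and Klhl3 at day 1 and of Umod and Slc12a3 at day 3 were called in every alternative run, as was the Slc12a1 difference between days in format (3.08 to 4.65 when libraries were left out). The causes of the changes below were not tested. The lowest count behind any value of the 9 genes was 22 reads (Klhl3).

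With 1-digit libraries alone, 8119 genes were called at day 3 against day 0 (4757 over all libraries). In the same setting, day 3 against day 1 gave 5194 of all genes (2276 over all), 5 of the 9 (3 over all) and 15 of the 36 other salt genes (4 over all). With those 2 days alone, 831 genes were called. Total counts without TMM called 3 of the 9 by format at day 1 (5 with TMM) and 5348 of all genes (5001 with TMM). For the difference between days DESeq2 called 4 of the 9 (2 with edgeR) and 3212 of all genes (2510 with edgeR). Against TMM, total counts moved the median of all genes by 0.14 at day 3 against day 0, 0.15 at day 3 against day 1, 0.21 between formats at day 1 and -0.17 for the difference. The share of higher calls went from 58.5% to 73.8%, from 53.6% to 77.9%, from 53.1% to 73.1% and from 51.9% to 35.0%.

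Leaving out 1 library gave 1269 to 3350 genes for day 3 against day 1 and 4 to 9 of the 36. It gave 2 to 6 of the 9 by format at day 1, with 1997 to 5602 genes and 5 to 15 of the 36. At day 3 it gave 1 to 6 of the 9, 91 to 4771 genes and 0 to 17 of the 36, the lowest each without day 3 replicate 5. For the difference it gave 1 to 3 of the 9 and 1260 to 3148 genes.

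Uncalled values turned sign. The Stk39 value at day 3 against day 0 was -0.010 with RLE, -0.010 with DESeq2, -0.0095 with the 2 days alone, -0.014 with a format term, -0.034 with no filter, -0.0021 with at least 10 counts, -0.22 in 3-digit libraries and -0.067 to 0.21 with 1 library left out. In 3-digit libraries Stk39 had 0.025 at day 1 and -0.25 for day 3 against day 1, and Trpm6 -0.17 at day 1 and -0.15 at day 3. In 1-digit libraries Slc12a3 had 0.11 at day 1, and Slc12a1 -1.74 for day 3 against day 1 (adjusted p = 0.00877 by edgeR). Trpm6 for day 3 against day 1 had 0.11 without TMM, 0.094 with a format term, 0.14 in 1-digit and 0.025 in 3-digit libraries, and -0.40 to 0.081 with 1 library left out. By format, Klhl3 at day 1 had 0.020 and Umod at day 3 0.016 without TMM, and -0.37 to 0.052 and -0.29 to 0.29 with 1 library left out. With 1 library left out, the difference between days in format ran from -0.0086 to 0.57 for Umod, -0.75 to 0.014 for Bsnd, -0.51 to 0.28 for Wnk4 and -0.44 to 0.27 for Trpm6.

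Whether replicate numbers pair the libraries is not given in the labels, and the main tests treated the libraries as unpaired. Same-numbered libraries had correlations of their deviations from -0.175 to 0.261. These cannot settle pairing, since libraries of different numbers were not correlated for reference. With a replicate block 6, 6 and 3 of the 9 were called in the 3 comparisons of days, and 5162, 4103 and 2044 of all genes, and Stk39 at day 3 had -0.069.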
